A study of Homo sapiens with 6 samples.

Results

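The mRNA levels of 7 human genes for replication-independent histone variants were compared between neural stem cells with and without knockdown of BMI1. The genes were chosen by name, under the older symbols that the count tables use, and all 7 were found among 26485 symbols and passed the filter on low counts, which 12937 genes passed. They are the linker histone gene H1FX, the H2A variant genes H2AFZ, H2AFV, H2AFY and H2AFY2, and the H3 variant genes H3F3A and H3F3B. Their current symbols are H1-10, H2AZ1, H2AZ2, MACROH2A1, MACROH2A2, H3-3A and H3-3B. The knockdown group held 3 libraries in which BMI1 and its read-through with the upstream gene, COMMD3-BMI1, were the stated targets. The control group held 3 libraries of cells that carried a control short hairpin RNA and are labelled wild type. Both groups were made from total RNA of AF22, a human neural stem cell line that is the only line among the 6 libraries, with a directional library kit. The labels give neither hairpin sequences, a time after knockdown nor separate cultures for the replicates, so the p-values rest on a spread between libraries that could be purely technical.

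Most histone genes are switched on in S phase and their mRNAs end in a stem-loop. Genes of replication-independent variants are instead transcribed through the cell cycle into polyadenylated mRNAs, and their proteins enter chromatin outside replication. H3.3 replaces H3 at active genes and at telomeres, H2A.Z marks nucleosomes at promoters, macroH2A carries a large globular domain and is enriched on silent chromatin, and linker histones bind the DNA between nucleosomes. BMI1 belongs to Polycomb repressive complex 1, which ubiquitinates H2A and keeps developmental genes and cell cycle inhibitors silent in neural stem cells.

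Promoter windows from RefSeq (GRCh38.p14) were found for all 7 genes. The windows reach from 250 bases before to 50 bases after the annotated start. Those of 4 genes are shown, on the strand of the gene and 5′ to 3′: H1FX and H2AFV passed in the paired fit, H3F3B did not overlap between groups, and H2AFZ is the paralog of H2AFV. They lie at chr3:129316237-129316536 on the minus strand (H1FX), chr7:44848038-44848337 on the minus strand (H2AFV), chr4:99950226-99950525 on the minus strand (H2AFZ) and chr17:75779730-75780029 on the minus strand (H3F3B). Capitals mark matches, on either strand, to CCAAT, to TATAAA, to TTTGAA (the cell cycle gene homology region, CHR) or to its variant TTCGAA. No matches overlapped within these windows.
H1FX: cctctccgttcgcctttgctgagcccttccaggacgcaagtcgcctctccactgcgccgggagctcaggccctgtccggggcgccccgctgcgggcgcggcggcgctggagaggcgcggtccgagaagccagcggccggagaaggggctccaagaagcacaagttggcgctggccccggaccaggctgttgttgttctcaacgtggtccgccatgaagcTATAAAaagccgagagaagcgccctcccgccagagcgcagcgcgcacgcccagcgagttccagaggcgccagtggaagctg
H2AFV: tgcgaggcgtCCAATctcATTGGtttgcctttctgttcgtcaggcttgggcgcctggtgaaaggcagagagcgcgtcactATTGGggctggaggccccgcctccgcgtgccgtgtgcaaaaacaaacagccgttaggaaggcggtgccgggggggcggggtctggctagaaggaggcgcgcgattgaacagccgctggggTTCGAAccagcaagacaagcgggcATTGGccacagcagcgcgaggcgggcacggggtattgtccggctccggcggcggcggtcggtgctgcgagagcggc
H2AFZ: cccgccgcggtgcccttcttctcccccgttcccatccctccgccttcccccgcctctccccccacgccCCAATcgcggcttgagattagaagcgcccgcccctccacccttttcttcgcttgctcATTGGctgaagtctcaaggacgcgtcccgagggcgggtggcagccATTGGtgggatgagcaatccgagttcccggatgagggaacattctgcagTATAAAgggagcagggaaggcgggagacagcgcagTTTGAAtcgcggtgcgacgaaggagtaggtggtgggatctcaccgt
H3F3B: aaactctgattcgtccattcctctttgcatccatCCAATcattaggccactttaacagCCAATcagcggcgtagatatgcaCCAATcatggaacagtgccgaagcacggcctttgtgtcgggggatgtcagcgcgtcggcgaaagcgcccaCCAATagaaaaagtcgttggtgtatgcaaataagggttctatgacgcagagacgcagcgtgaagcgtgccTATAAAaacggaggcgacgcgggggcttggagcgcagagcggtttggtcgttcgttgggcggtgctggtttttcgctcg
The H2AFZ window held 3 CCAAT matches, a TATAAA match that began 31 bases before the start and a TTTGAA match that began at base 5 of the transcript. The H2AFV window held 4 CCAAT matches and a TTCGAA match that began 50 bases before the start, and no TATAAA. The H3F3B window had 4 CCAAT matches and TATAAA 29 bases before the start, and in the H1FX window the only match was TATAAA, 31 bases before the start. Of 35116 windows of this length over all genes, 34.6% held CCAAT, 11.5% TATAAA, 15.2% TTTGAA and 1.45% TTCGAA. A match describes the letters and says nothing of binding.

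Total counts ran from 4962745 to 9640349 in the knockdown libraries and from 5496683 to 6870122 in the control libraries. BMI1 had 193, 159 and 250 counts in knockdown libraries 1, 2 and 3, against 463, 582 and 606 counts in control libraries 1, 2 and 3. Its level was 29.2 ± 9.57 CPM in knockdown and 87.5 ± 2.44 CPM in control libraries (CPM, the read count scaled to library size; mean ± SD, n = 3 each), and every knockdown library lay below every control library. Its log2 fold change was -1.61 (SE 0.194, edgeR adjusted p 0.163) unpaired and -1.64 (SE 0.155, edgeR adjusted p 0.00836) in the paired fit. COMMD3, its upstream neighbour, had 31.6, 33.4 and 32.5 CPM in knockdown libraries 1, 2 and 3, against 23.9, 27.5 and 27.4 CPM in control libraries 1, 2 and 3 (paired log2 fold change 0.30, edgeR adjusted p 0.0804). COMMD3-BMI1 had 0 counts in all 6 libraries. How reads shared by the read-through and its single genes were counted is not given, so this does not show that it was absent. Each gene is given from an unpaired fit, the main test, and from a paired fit that adds the library number as a term, since same-numbered libraries deviated together from their group means. On the first principal component knockdown library 2 was far from the rest, at 40.2, against -25.5 to 11.5 for the other 5 libraries. Knockdown library 1, at -12.4, lay within the range of the controls (-25.5 to -4.07). Over all genes, the unpaired edgeR test called 0 of 12937 at an adjusted p of 0.05 (0%), with 1869 (14.4%) at an unadjusted p under 0.05. Unpaired DESeq2 called 142 (1.10%) and limma voom 0. The paired edgeR fit called 1296 (10%), of which 599 (4.63%) were higher and 697 (5.39%) lower in knockdown.

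Of the 7 histone variant genes, none passed the unpaired edgeR test, and none had an unadjusted p under 0.05 in it. In the paired fit 2 of 7 passed, H1FX and H2AFV, both lower in knockdown (0.831-fold and 0.834-fold). That fit called 10% of all genes, and 5.39% as lower. At an unadjusted p under 0.05 the paired fit took 4 of the 7, against 28.7% of all genes. The other H2A genes had negative log2 fold changes and both H3.3 genes positive ones. In 3 of the 7 genes all 3 pairs were lower in knockdown, which 26.7% of all genes showed, and in 2 all 3 pairs were higher, which 25.6% showed. Differences were small: the median size of the paired log2 fold change was 0.22 over the 7 genes and 0.15 over all genes tested. The median signed value was -0.13 over the 7 genes and -0.0045 over all genes. No test of the 7 as a set was made.

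**Figure D1:**
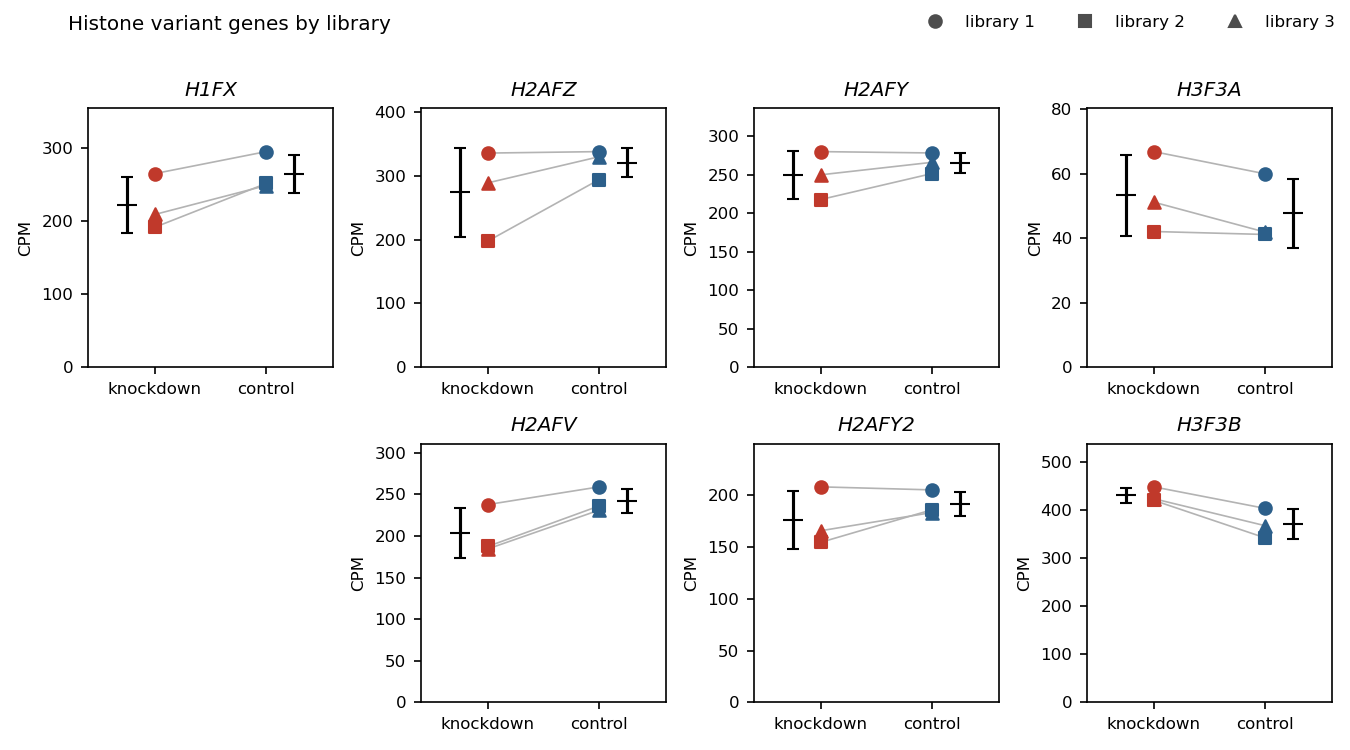
Level of each histone variant gene in CPM (vertical axes from 0) in the 3 knockdown libraries (red) and 3 control libraries (blue), with grey lines joining same-numbered libraries and black bars showing mean ± SD. Library 1 (circle) was the highest of its group in every panel, and the knockdown points lie above the control points without overlap in H3F3B alone.

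The linker histone gene was lower in knockdown than in control in each pair and passed in the paired fit. H1FX encodes H1.10, a divergent linker histone, and lies on chromosome 3 at 129314771 to 129316277 on the minus strand (GRCh38, GENCODE 29, as for all gene positions here). It had 265.5, 191.9 and 209.4 CPM in knockdown libraries 1, 2 and 3, against 295.7, 252.0 and 249.2 CPM in control libraries 1, 2 and 3. Knockdown library 1 lay above control libraries 2 and 3, so the groups overlapped, while every knockdown library was below its same-numbered control. H1FX fell in the paired fit, with a log2 fold change of -0.27 (SE 0.068, edgeR adjusted p 0.0444). The unpaired value was -0.26 (SE 0.136, edgeR adjusted p 0.422). The paired call was lost without pair 1 (edgeR adjusted p 0.0667) or pair 3 (0.204), with DESeq2 (0.165) and with a trend in GC content and length removed (0.0582). H1FX has a single exon in its longest coding transcript and shares no stretch of 50 bases with another annotated transcript. An antisense gene, H1FX-AS1, overlaps its exon and had 7.38 ± 4.06 CPM in knockdown and 5.40 ± 1.68 CPM in control libraries (SD, n = 3 each).

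The H2A.Z genes were also lower on average, and one of them passed in the paired fit. H2AFV encodes H2A.Z.2, on chromosome 7 at 44826791 to 44848083 on the minus strand. It had 237.8, 187.5 and 184.5 CPM in knockdown libraries 1, 2 and 3, against 259.1, 236.2 and 231.1 CPM in control libraries 1, 2 and 3. All 3 pairs were lower in knockdown, by -0.12, -0.33 and -0.32 on the log2 scale, and knockdown library 1 overlapped the controls. H2AFV fell in the paired fit by 0.26 on the log2 scale (SE 0.068, edgeR adjusted p 0.0462), and its unpaired value was -0.25 (SE 0.117, adjusted p 0.368). This call too was lost without pair 1 (edgeR adjusted p 0.0548) or pair 3 (0.315) and with DESeq2 (0.188), but not with the GC and length trend removed (0.0323).

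H2AFZ encodes H2A.Z.1, the paralog whose mRNA is abundant in dividing cells, on chromosome 4 at 99948086 to 99950388 on the minus strand. Its knockdown libraries 1, 2 and 3 had 335.8, 197.7 and 289.1 CPM, and control libraries 1, 2 and 3 had 338.1, 294.3 and 330.1 CPM. The spread in knockdown (SD 70.2 CPM) was wider than in control (SD 23.3 CPM), and the low value was that of knockdown library 2. In the paired fit its log2 fold change was -0.26 (SE 0.099, edgeR adjusted p 0.130), with -0.01, -0.57 and -0.19 in pairs 1, 2 and 3. Without pair 2 it was -0.11. Of 50-base stretches of its longest coding transcript, 6.45% also occur in the pseudogene H2AFZP3, and for H2AFV 3.06% occur in other genes. Some of their reads could therefore have been counted elsewhere, in a share that these percentages do not give.

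Neither macroH2A gene passed in either fit. H2AFY encodes macroH2A1, on chromosome 5 at 135333900 to 135399914 on the minus strand, and had 279.8, 217.6 and 249.7 CPM in knockdown libraries 1, 2 and 3. Its control libraries had 278.0, 251.3 and 265.9 CPM, so the groups overlapped, and pair 1 differed by 0.01 on the log2 scale. H2AFY2 encodes macroH2A2, on chromosome 10 at 70052796 to 70112280 on the plus strand. It had 207.8, 154.3 and 165.5 CPM in knockdown, against 204.9, 185.8 and 183.1 CPM in control libraries 1, 2 and 3. The paired log2 fold changes were -0.10 (SE 0.067) for H2AFY and -0.13 (SE 0.072) for H2AFY2, with edgeR adjusted p-values of 0.369 and 0.264. Whether the macroH2A and H2A.Z genes differ in their change was not tested. AIFM2, which overlaps H2AFY2 on the opposite strand, had 4.23 ± 0.832 CPM in knockdown and 4.18 ± 2.25 CPM in control libraries (SD, n = 3 each).

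The H3.3 genes were the 2 with higher mean levels in knockdown. H3F3A and H3F3B encode the same protein from different loci, chromosome 1 at 226061851 to 226072001 on the plus strand and chromosome 17 at 75776434 to 75785893 on the minus strand. H3F3B had 449.1, 421.0 and 424.4 CPM in knockdown libraries 1, 2 and 3, against 404.3, 342.8 and 368.2 CPM in control libraries 1, 2 and 3. Every knockdown library lay above every control library, which held for 9.28% of all genes tested and for 1 of the 7. No member had all knockdown libraries lower, which held for 11.2%, and groups did not overlap in either direction in 20.5% of all genes. The paired log2 fold change of H3F3B was 0.22 (SE 0.064, 1.16-fold, edgeR adjusted p 0.0617), and the unpaired one 0.22 (SE 0.096, adjusted p 0.356). It did not pass, and came under 0.05 in the paired fit with no filter (0.0319), with the GC and length trend removed (0.0369) and without pair 2 (0.00158). UNK overlaps H3F3B on the opposite strand and had 71.5 ± 5.22 CPM in knockdown and 78.1 ± 7.17 CPM in control libraries (SD, n = 3 each).

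H3F3A was counted far lower, at 66.8, 42.0 and 51.1 CPM in knockdown libraries 1, 2 and 3 and 59.9, 41.1 and 41.8 CPM in control libraries 1, 2 and 3. All 3 pairs were higher in knockdown, by 0.16, 0.03 and 0.29 on the log2 scale, and the groups overlapped. The paired log2 fold change was 0.16 (SE 0.085, edgeR adjusted p 0.244), and the unpaired value turned to -0.02 without knockdown library 1. Its counts are uncertain, because the processed pseudogene H3F3AP4, on chromosome 2 at 174719908 to 174720318, had more of them than the gene itself. H3F3AP4 had 299.4, 234.4 and 243.0 CPM in knockdown libraries 1, 2 and 3, against 278.8, 231.7 and 255.9 CPM in control libraries 1, 2 and 3. In GENCODE, 12.9% of 50-base stretches of the longest coding H3F3A transcript occur word for word in H3F3AP4. How reads that fit both were assigned is not given in the sources used here, so the level of H3F3A and its change may be misstated. The paired log2 fold change of H3F3AP4 was 0.01 (SE 0.065, edgeR adjusted p 0.910).

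**Figure D2:**
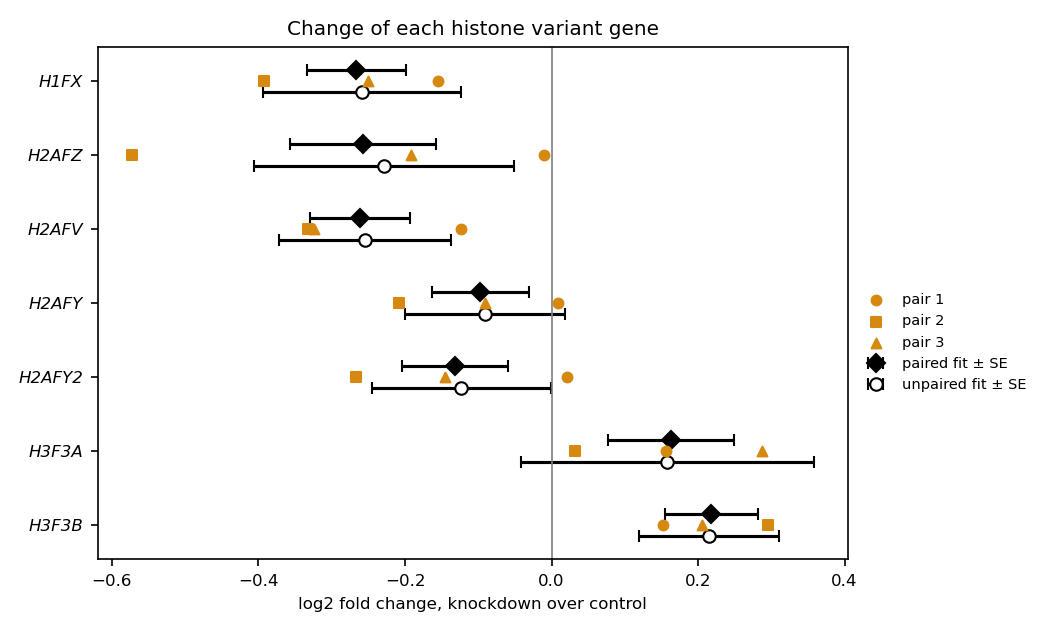
Log2 fold change of each gene, knockdown over control, from the paired fit (diamonds) and unpaired fit (open circles), with bars of 1 SE, and the log2 difference within each pair of same-numbered libraries (orange). The fitted values of the 5 linker and H2A genes lie left of 0 and those of the 2 H3.3 genes right of it. Pair 1 lies slightly right of 0 for H2AFY and H2AFY2, and pair 2 is far to the left of the other pairs for H2AFZ.

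The 7 genes also shared a pattern by library number. In each of them the library numbered 1 was the highest in both groups, which 23.3% of all genes tested showed. Library 1 also had the lowest total count of its group, at 4962745 in knockdown and 5496683 in control. Library number and depth therefore cannot be told apart here. The summed level of the 7 genes was 1842.6, 1412.1 and 1573.7 CPM in knockdown libraries 1, 2 and 3, against 1839.9, 1603.5 and 1669.4 CPM in control libraries 1, 2 and 3. Knockdown library 1 was thus near control library 1, and the sums of the groups overlapped.

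Counts within 1 library can be compared without any scaling between libraries. For 3 pairs of related genes, differences in the log2 ratio between groups were smaller than the spread between libraries (exact two-sided permutation tests, whose smallest possible p with 3 against 3 is 0.1, so none could pass). The ratio of H2AFZ to H2AFV was 0.41 ± 0.296 in knockdown and 0.41 ± 0.10 in control libraries (log2, SD, n = 3 each, exact p 1.0). That of H3F3A to H3F3B was -3.04 ± 0.288 in knockdown and -2.98 ± 0.202 in control libraries (exact p 1.0, n = 3 each). This ratio leaves out H3F3AP4, which had more counts than H3F3A, so its level and its difference between groups may be misstated. H2AFY to H2AFY2 stood at 0.51 ± 0.082 in knockdown and 0.47 ± 0.058 in control libraries (exact p 0.7, n = 3 each). All 3 p-values were 1.0 after Benjamini-Hochberg adjustment. The knockdown libraries were the more spread in every ratio, and knockdown library 2 was the lowest in 2 of them.

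Across variant families, a ratio was taken of genes with higher mean levels in knockdown to genes with lower ones. For each read of the H2A.Z genes there were 0.899, 1.20 and 1.00 reads of the H3.3 genes in knockdown libraries 1, 2 and 3, against 0.777, 0.724 and 0.731 in control libraries 1, 2 and 3. The lowest knockdown library lay above the highest control library, and pairs 1, 2 and 3 differed by 0.21, 0.73 and 0.46 on the log2 scale. The mean log2 difference was 0.47, and 0.35 without knockdown library 2. With the counts of H3F3AP4 added to H3.3 the ratios were 1.42, 1.81 and 1.52 in knockdown and 1.24, 1.16 and 1.19 in control libraries, again without overlap. This ratio was chosen after the directions of the genes had been seen, a choice that favours separation of the groups, so no test is given. Beside it stands the summed level of genes of G1/S and S phase, which was 5169, 3028 and 3576 CPM in knockdown libraries 1, 2 and 3 and 5893, 5440 and 4887 CPM in control libraries 1, 2 and 3. Knockdown library 2 had the highest ratio and the lowest sum, while among the controls library 1 had both the highest ratio and the highest sum. The part of cell cycling in the ratio was not tested. In bulk RNA, fewer cells of a kind and less RNA per cell cannot be told apart.

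**Figure D3:**
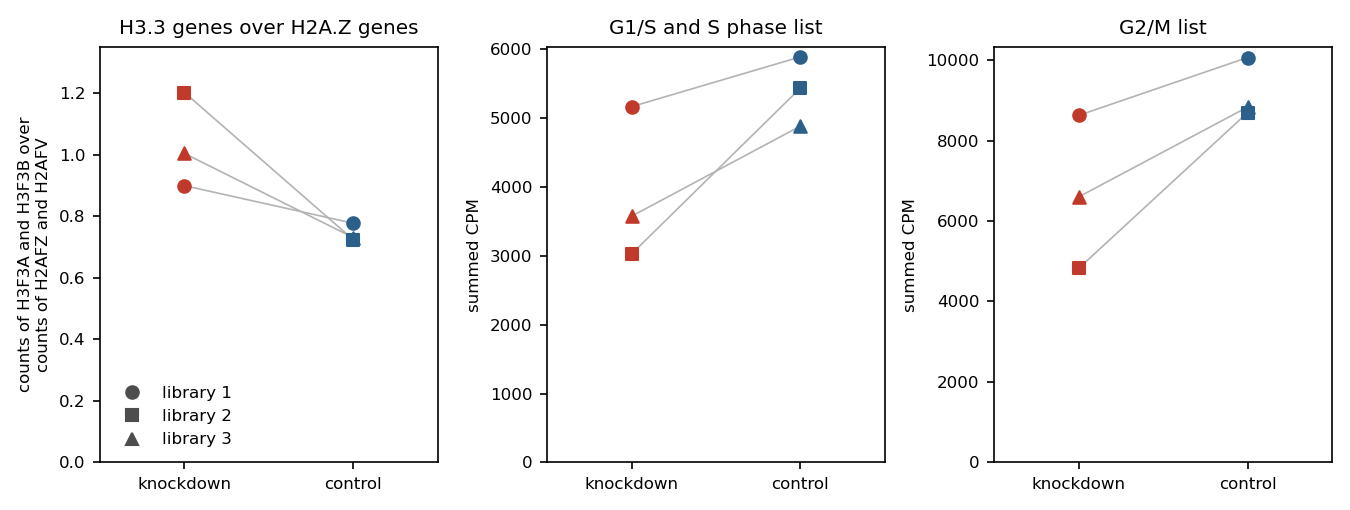
Left, reads of the H3.3 genes for each read of the H2A.Z genes in knockdown (red) and control (blue) libraries; middle and right, summed CPM of lists for G1/S with S phase and for G2/M. Axes start at 0 and lines join same-numbered libraries. Knockdown library 2 (square) had the highest ratio, 1.20, and the lowest sums, 3028 and 4821 CPM, and control library 1 (circle) was the highest control in all 3 panels.

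Among other histone genes, H2AFX and CENPA were lower in knockdown. Of 16 further variants 3 had enough counts to be tested and 8 were at 0 in all 6 libraries. H2AFX encodes H2A.X, the variant phosphorylated at DNA breaks, and had 208.2, 121.9 and 168.4 CPM in knockdown libraries 1, 2 and 3, against 240.5, 229.7 and 235.5 CPM in control libraries. It fell in the paired fit by 0.53 on the log2 scale (SE 0.115, edgeR adjusted p 0.0304). CENPA, the H3 variant of centromeres, had 28.3, 11.6 and 19.7 CPM in knockdown, against 37.1, 30.8 and 32.8 CPM in control libraries. It fell in the paired fit by 0.81 (SE 0.169, edgeR adjusted p 0.0283), and in both genes the groups did not overlap. CENPA is also in the G2/M list and among the genes called there. H2AFJ was at -0.72 without passing (edgeR adjusted p 0.133), and its groups did not overlap either. Over all genes, the paired fit called 5.39% lower, and 11.2% had every knockdown library below every control library. In the unpaired fit the adjusted p was 0.272 for H2AFX and 0.275 for CENPA. Of 69 replication-dependent histone genes 9 were tested and none passed in either fit. All 69 together had 97.8, 85.0 and 96.9 CPM in knockdown and 117.1, 85.6 and 109.9 CPM in control libraries 1, 2 and 3, far under the 7 variant genes. How RNA was selected for these libraries is not given in the sources used here, so the low level of mRNAs that lack a poly(A) tail is not interpreted.

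Among factors that place or remove H3.3 and H2A.Z few passed. In the list of H3.3 deposition 1 of 8 genes passed in the paired fit, which took 10% of all genes, DAXX, the chaperone that places H3.3 at repeats together with ATRX. DAXX had 99.5, 72.4 and 81.7 CPM in knockdown libraries 1, 2 and 3, against 116.5, 104.6 and 107.8 CPM in control libraries 1, 2 and 3, and fell by 0.39 on the log2 scale (SE 0.076, edgeR adjusted p 0.0266). The median paired log2 fold change of this list was 0.02. None of 26 genes of H2A.Z exchange, which covers the SRCAP, TIP60 and INO80 complexes and the chaperone ANP32E, passed in either fit (paired median -0.07). None of 13 genes that process replication-dependent histone mRNAs passed either (paired median -0.09). The paired fit called 7 of 20 general histone chaperones lower and none higher, at a median of -0.18: CHAF1A, CHAF1B, ASF1B, NASP, MCM2, TONSL and HJURP. CHAF1A, the large subunit of the chromatin assembly factor that loads histones at replication forks, changed by -0.72 (SE 0.123) and ASF1B, its partner that hands over new H3 and H4, by -0.65 (SE 0.125). HJURP, the CENPA chaperone, changed by -0.78 (SE 0.142), and MCM2, a subunit of the replicative helicase that also binds histones, by -0.62 (SE 0.122). MCM2, NASP and CHAF1B are also in the list for G1/S with S phase and HJURP to the G2/M list. In the unpaired fit none of the 7 passed.

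Beside these, the paired fit called 34 of 43 genes of G1/S and S phase lower (median -0.57) and 42 of 52 of G2/M (median -0.64), none higher and none in the unpaired fit. Of all genes tested, the paired fit called 5.39% lower. GINS2, part of the replicative helicase, changed by -0.70 (SE 0.109), CLSPN, a checkpoint adaptor, by -0.96 (SE 0.160) and USP1, a deubiquitinase of PCNA, by -0.57 (SE 0.105). In the G2/M list MKI67, the proliferation marker, changed by -0.88 (SE 0.141), CDCA3 by -1.15 (SE 0.194), G2E3 by -0.57 (SE 0.097) and TACC3, a spindle protein, by -0.74 (SE 0.129). These genes are named because their paired p-values were the smallest of their lists. Within pairs 1, 2 and 3 the medians were -0.24, -0.99 and -0.53 for G1/S and S phase. In each of the 5 linker and H2A variant genes pair 2 was the most negative and pair 1 the least. BMI1 had the same order, at -1.09, -2.05 and -1.73, and H3F3B also differed most in pair 2, but upward (0.30). The medians of the G2/M list had this order too, at -0.26, -1.11 and -0.51 in pairs 1, 2 and 3. The share of all genes with this order was not counted, so the order is not read as particular to the histone genes. Any link of the order to the level of BMI1 was not tested. The part of the cell cycle genes in the values of the histone genes was not tested.

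**Figure D4:**
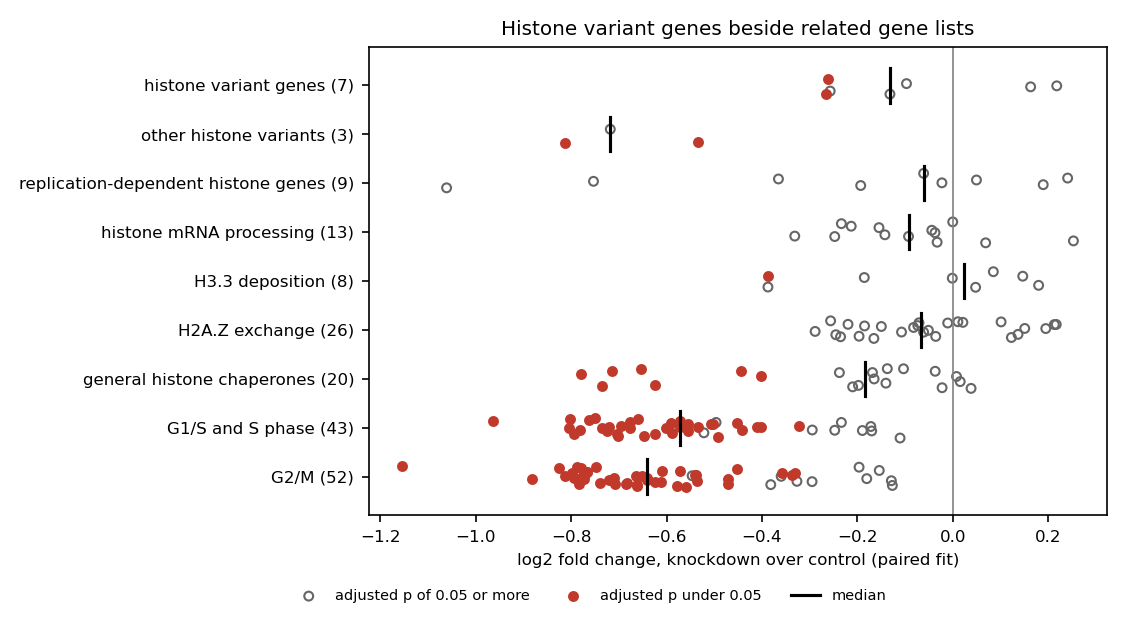
Paired log2 fold change, knockdown over control, of each tested gene among the 7 histone variant genes and in related lists (number tested in brackets), with filled points for an adjusted p under 0.05 and a black bar at the median. The 7 genes lie between -0.27 and 0.22, and the medians of the cell cycle lists are at -0.57 and -0.64.

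The cell type label was checked on marker lists. Of 12 neural stem cell markers 11 were tested and HES5 was at 0. Their summed level was 2980 to 4139 CPM in knockdown and 3595 to 3841 CPM in control libraries, and none passed in the paired fit. Markers of other cells were present. Neuronal markers summed to 895 to 1142 CPM in knockdown and 1090 to 1240 CPM in control libraries, with ELAVL4 and RBFOX3 at 0 and ELAVL3 and NEFM of 7 tested lower in the paired fit (-0.96 and -0.89). Of the other neuronal markers SYT1, MAP2 and SNAP25 had positive values that did not pass (0.29, 0.15 and 0.15), and the median of the list was -0.18. Mesenchymal markers summed to 1666 to 2337 CPM in knockdown and 1337 to 1630 CPM in control libraries, with COL3A1 of 10 tested higher (0.39). Astroglial markers summed to 603 to 658 CPM in knockdown and 548 to 592 CPM in control libraries, with GJA1 of 4 tested higher (0.26). Oligodendrocyte markers summed to 159 to 187 CPM in knockdown and 181 to 208 CPM in control libraries, with SOX10 at 0 and no call among 4 tested. Pluripotency markers summed to 482 to 600 CPM in knockdown and 408 to 561 CPM in control libraries, with NANOG and TDGF1 at 0 and no call among 3 tested. The paired fit called 4.63% of all genes higher and 5.39% lower, so these few marker calls are not read as shifts in cell type. The part of these markers in the values of the histone genes was not tested.

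Levels of different genes were set side by side per kilobase of transcript. With the median length of coding transcripts, H3F3B was the highest, at 743 ± 26.4 CPM per kilobase in knockdown and 640 ± 53.1 in control libraries (SD, n = 3 each). H2AFV followed at 309 ± 45.6 in knockdown and 368 ± 22.7 in control, then H2AFZ at 280 ± 71.7 in knockdown and 328 ± 23.8 in control, neighbours whose ranges of mean ± SD met in both groups. H1FX had 148 ± 25.5 CPM per kilobase in knockdown and 176 ± 17.3 in control, H2AFY 134 ± 16.7 in knockdown and 143 ± 7.19 in control, and H2AFY2 122 ± 19.5 in knockdown and 132 ± 8.23 in control. The ranges of H2AFY and H2AFY2 met in both groups. At the bottom was H3F3A at 44.5 ± 10.5 in knockdown and 39.7 ± 8.88 in control libraries. Its value leaves out H3F3AP4, which had more counts than H3F3A, so its place in the order may be misstated. The order depended on the length used: with the union of all exons H1FX ranked first in control libraries and H3F3B came after H2AFZ and H2AFY2, and with the longest coding transcript H2AFZ ranked first.

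For the 2 genes called in the paired fit, the genes of most similar log2 CPM over the 6 libraries were looked up among 10437 other genes with a mean of at least 10 CPM. For H1FX these were EPB41 (Pearson r 0.995), a membrane skeleton gene, and DCAF16 (0.993). For H2AFV they were STARD7 (0.996) and EXOSC5 (0.994), an exosome subunit gene. With 6 points such values are common: 339 genes reached 0.95 with H1FX and 183 with H2AFV, and all share library and scaling.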

How the data were processed

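For each library the authors deposited raw read counts of 26485 gene symbols. The submitters' processing notes list Trim Galore 0.6.6, STAR 2.7.10a, bedtools and hg38. Which annotation was counted, how, and whether strand was used is not given in the sources used here, so reads of overlapping or near-identical genes could have been split or dropped.

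Groups and library numbers came from the titles. Libraries of the same group differed beyond sampling noise (chi-square per gene of 3.19 or more). Genes were kept with filterByExpr, scaled with TMM and tested with the quasi-likelihood test of edgeR 4.0.16 in R 4.3.3, with Benjamini-Hochberg adjustment over all genes at 0.05 and group as the only term. CPM values use TMM-scaled totals, and log2 CPM a prior count of 2. The SE is the log2 fold change divided by the square root of F. Library numbers were treated as pairs because deviations of same-numbered libraries from their group means correlated at 0.5628, 0.4674 and 0.5345 across genes, each above 0.1. The pairing thus comes from the data, not the labels.

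Alternatives were other scalings and filters, DESeq2 1.42.0, limma 3.58.1 (voom), an adjusted p of 0.01, the block, a GC content and length trend removed (known for 94.94% of tested genes), and leaving out libraries or pairs. The steps were checked on simulated counts. Gene positions, lengths and copies came from GENCODE 29. All members and the targeted genes were named, with the genes of each list called in either fit, or the 4 of smallest paired p where over 6 were called. The genes named beyond this rule, such as H2AFJ, H3F3AP4 and the other called chaperones, were chosen after their values were seen. One further histone variant gene, its ratio and one cell cycle gene are not reported here. Members and lists were chosen with earlier results of these data known.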

Additional observations from a re-analysis of the deposited data

How the results depend on the processing

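The paired fit, with the library number as a block, called 1296 genes and 2 of the 7 histone variant genes where the unpaired fit called 0 of each. It also brought in BMI1 and every list gene given as called, none of which passed unpaired. The 3 ratios of related genes have the same mean difference with or without pairing. Of all genes, the unpaired test called 2 with no filter and 142 with DESeq2, and 0 to 665 when 1 library was left out, the highest without knockdown library 1. It called no histone variant gene under any of the 13 unpaired settings. With the block, calls were 1335 genes with RLE size factors, 1283 with total count only, 1328 with at least 1 CPM in 3 libraries and 1390 with limma voom, with 2 histone variant genes in each. They were 2171 and 4 with no filter, 1670 and 2 with the GC and length trend removed, 590 and 0 with DESeq2, and 12 and 0 at an adjusted p of 0.01. Leaving out each pair gave 912 to 2296 genes (1320 without pair 1) and 0 to 3 histone variant genes (0 without pair 1 or 3). Over 25 settings H3F3A changed sign once, at -0.019 without knockdown library 1 (0.358 without control library 1), and the other 6 genes kept their direction. Each of the 3 log2 ratios of related genes reversed with some single library left out. With some pair left out, all but H2AFY to H2AFY2 reversed. H2AFZ to H2AFV ran from -0.118 to 0.168 without 1 library and from -0.063 to 0.124 without 1 pair (-0.053 without pair 1). H3F3A to H3F3B ran from -0.205 to 0.083 and from -0.130 to 0.045, and H2AFY to H2AFY2 from -0.0093 to 0.073 and from 0.022 to 0.057. The log2 difference of H3.3 to H2A.Z reads, added after seeing the data, ran from 0.354 to 0.563 without 1 library and from 0.335 to 0.595 without 1 pair. The cause of these shifts was not tested. The lowest count of a histone variant gene in any library was 266, for H3F3A.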
